A study of Mus musculus with 9 samples.

Results

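The cell cycle and mitosis genes described here are 46 listed mouse genes that drive or mark cell division: cyclins and their kinases, kinase inhibitors and phosphatases, transcription factors, replication and nucleotide synthesis genes, and mitotic genes. They were chosen by symbol, with no threshold on their values, and each is read from the transcript cluster (the array's unit for a gene) that carries the symbol. Of the 46, 43 had a cluster, 1 each, among the 22206 clusters measured. No cluster of the annotation carried the symbol or Entrez identifier of Ccnb1, Ccnd1 or Foxm1, and these 3 were not analysed here.

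Liver RNA was hybridised to Clariom S mouse arrays, 3 per group. The wild-type group was C57BL/6JHamSlc-+/+ and received vehicle. Both other groups were C57BL/6JHamSlc-ob/ob mice, which make no functional leptin, become obese and develop fatty liver; the first received vehicle and the second VE, an extract of Vigna umbellata (rice bean), at 100 mg/kg body weight by oral gavage. All mice were males aged 6 weeks at purchase, on standard chow, and treatment ran for 42 days. The leptin mutation is carried by both ob/ob groups, so the effect of the extract was measured only within obese mice. The labels number 3 replicates per group and name no shared culture, pool or litter. They do not state that each replicate is a single mouse.

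Division of a cell is driven by cyclins that switch on cyclin-dependent kinases in turn. D-type cyclins with Cdk4 start the cycle and release E2F transcription factors, E2F targets copy the DNA, and a later set of genes builds the spindle and separates the chromosomes; inhibitors such as the Cdkn1a product p21 stop the kinases. Adult hepatocytes rarely divide, and in fatty liver p21 and endoreplication (copying DNA without dividing) are well-known responses to stress.

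Signals are on the authors' log2 scale, so 1 unit is a doubling. Since most members are transcribed mainly in dividing cells, each array's dim range was read from 1091 olfactory receptor clusters, genes normally silent in liver, as the span of the central 95% of their values. Its upper end lay between 5.33 and 5.74 on 7 arrays, but at 6.62 on wild-type array 3 and at 6.44 on ob/ob vehicle array 3. Those 2 arrays also correlated less with their group (r over all clusters 0.948 to 0.955, against 0.980 to 0.990 elsewhere within groups). Only 3 members, Ccnd3, Pcna and Cenpa, were above that range on all 9 arrays. A further 21 were above it on some arrays and 19 on none. Members above the range numbered 17, 12 and 3 on the wild-type arrays, 19, 21 and 8 on the ob/ob vehicle arrays, and 20, 19 and 17 on the extract arrays. For the 19 dim members, which include Cdk1, Ccna2, E2f1, Plk1, Birc5 and Aurkb, a difference between groups is therefore one between signals no brighter than those of olfactory receptors. Markers fitted the labelled tissue: all 6 hepatocyte genes (Alb, Apoa1, Ttr, Tat, Cps1, Hnf4a) were above the range on every array.

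**Figure D1:**
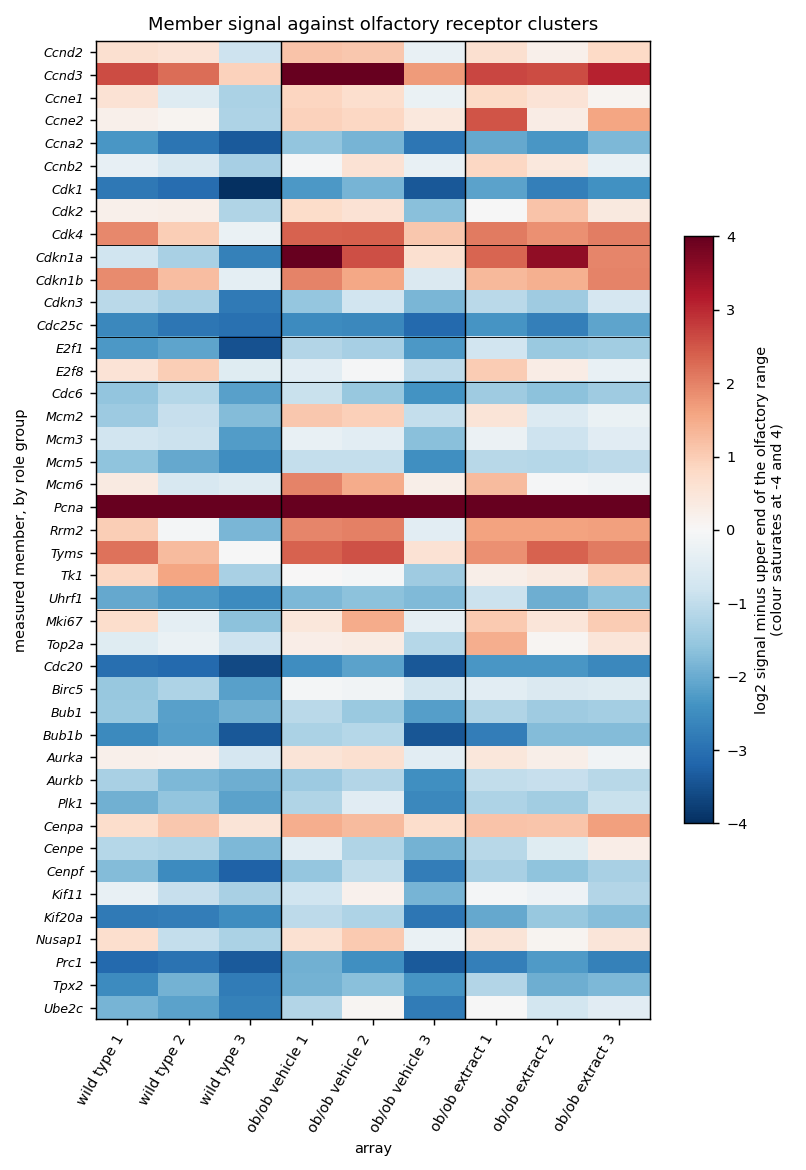
Log2 signal of the 43 measured members (rows of the heat map, by role) on each of the 9 arrays (columns), minus the upper end of that array's olfactory receptor range; red is above the range, blue is below its upper end, and the colour saturates at -4 and 4. Ccnd3, Pcna and Cenpa are red on all 9 arrays, and wild-type array 3 and ob/ob vehicle array 3 have the fewest members above the range, 3 and 8.

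The promoters of the 2 called members, Cdkn1a and Birc5, and of the helicase genes Mcm2 and Mcm6 are shown here because cell cycle genes are known to share a small set of promoter elements. RefSeq sequence (GRCm38.p6) gave a window for 37 of the 46 members, and each line holds the 250 bases before a transcription start. Capitals mark a CCAAT box (CCAAT, or ATTGG on the other strand), a cell cycle homology region (TTTGAA or TTCGAA), an E2F site (TTTCCCGC, TTTGGCGC, TTTCGCGC or TTTGCCGC) or, in Cdkn1a, a pair of abutting p53 decamers; all were searched on both strands. Cdkn1a has 2 annotated starts 2790 bases apart, at chr17:29090729-29090978 (+ strand, upstream window) and chr17:29093519-29093768 (+, downstream window). Birc5 is at chr11:117848987-117849236 (+), Mcm2 at chr6:88898781-88899030 (-) and Mcm6 at chr1:128359706-128359955 (-).
Cdkn1a, upstream window: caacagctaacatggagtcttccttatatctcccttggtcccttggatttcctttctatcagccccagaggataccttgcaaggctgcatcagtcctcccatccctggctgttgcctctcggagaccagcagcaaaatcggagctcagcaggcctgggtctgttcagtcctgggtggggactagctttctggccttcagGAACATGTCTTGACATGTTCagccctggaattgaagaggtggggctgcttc
Cdkn1a, downstream window: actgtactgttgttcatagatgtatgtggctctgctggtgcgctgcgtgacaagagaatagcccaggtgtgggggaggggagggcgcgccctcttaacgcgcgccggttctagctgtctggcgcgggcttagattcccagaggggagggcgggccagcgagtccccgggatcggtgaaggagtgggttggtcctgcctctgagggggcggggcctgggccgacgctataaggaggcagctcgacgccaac
Birc5: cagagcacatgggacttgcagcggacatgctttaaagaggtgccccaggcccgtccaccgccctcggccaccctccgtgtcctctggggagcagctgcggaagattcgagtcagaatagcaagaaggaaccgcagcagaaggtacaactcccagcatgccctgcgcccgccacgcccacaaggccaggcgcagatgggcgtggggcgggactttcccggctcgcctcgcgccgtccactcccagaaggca
Mcm2: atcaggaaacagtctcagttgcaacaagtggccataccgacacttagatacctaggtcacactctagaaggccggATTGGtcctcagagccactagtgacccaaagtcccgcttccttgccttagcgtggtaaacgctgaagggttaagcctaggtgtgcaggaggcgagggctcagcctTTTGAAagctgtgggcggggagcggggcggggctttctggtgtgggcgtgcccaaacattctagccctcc
Mcm6: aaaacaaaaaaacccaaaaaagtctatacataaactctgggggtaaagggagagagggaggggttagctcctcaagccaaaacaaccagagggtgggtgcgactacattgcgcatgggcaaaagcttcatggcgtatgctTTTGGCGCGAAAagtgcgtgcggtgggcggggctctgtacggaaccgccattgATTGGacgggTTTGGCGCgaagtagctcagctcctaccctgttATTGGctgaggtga

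The upstream Cdkn1a window holds a pair of abutting p53 decamers, the form of a p53 response element, 51 to 32 bases before the start, with 1 mismatch and none in the core letters of either decamer. That motif (name only, since its letters are degenerate) was searched after the sequence had been seen; 15 of 32851 windows in the whole table (0.0457%) hold it, Cdkn1a alone among the members and 0 of 13 other p53 target genes with a window. Neither Cdkn1a window nor the Birc5 window holds any of the other letters. The Mcm2 window holds 1 CCAAT box and 1 cell cycle homology region. Mcm6 has 3 E2F matches, of which the first and second overlap, and 2 CCAAT boxes. A match is a run of letters and was not measured as a bound site.

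Over all members with a window, 28 of 37 genes (75.7%) held a CCAAT box, against 37.5% of 27025 genes in the table. An E2F match was in 6 of 37 (16.2%, against 2.16%) and a cell cycle homology region in 12 of 37 (32.4%, against 19.6%). All 12 also held a CCAAT box, a combination found in 7.93% of all genes. The counts by role were not tested against each other. The mitotic genes held CCAAT boxes in 13 of 15 and cell cycle homology regions in 7 of 15, and none held an E2F match. Replication genes held E2F matches in 4 of 10 (Cdc6, Mcm5, Mcm6 and Uhrf1), CCAAT boxes in 7 and a cell cycle homology region in 1, Mcm2. Cyclins and kinases held E2F matches in 2 of 7 (Cdk1 and Cdk2), CCAAT boxes in 5 and cell cycle homology regions in 2.

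The first comparison, ob/ob vehicle against wild type, asks how the obese liver differs in these genes without the extract, after 42 days of vehicle in both groups. Cdkn1a was much higher in ob/ob liver and the mitotic gene Birc5 was higher from a dim level; the other 41 measured members passed no adjusted test. In limma with Benjamini-Hochberg adjustment over all 22206 clusters, 2 members were called at an adjusted p under 0.05, both higher, beside 2.28% of all clusters called higher and 0.680% called lower. By the study's own criterion of an unadjusted p under 0.05 and a fold above 1.1, 9 members were higher (Cdkn1a, Birc5, Ccnd3, Cdk1, Cdk4, E2f1, Mcm2, Mcm6 and Rrm2) and 2 lower (E2f8 and Tk1), where 10.3% and 6.72% of all clusters were. The groups did not overlap for 11 members (10 higher, 1 lower in ob/ob), against 19.5% of all clusters in either direction. No test compared these counts with the background. The mean was higher in ob/ob liver for 34 of 43 members, against 44.2% of all clusters, and the median difference was 0.31 against -0.06. When each array's median was subtracted, the median of all clusters moved to 0.06 and that of the members to 0.43, with 36 of 43 higher. In whole liver, more cells of a type and more RNA per cell cannot be told apart.

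Cdkn1a encodes p21, which binds and blocks cyclin-dependent kinases and is a classical target of p53. Its signal was 4.77, 4.43 and 3.92 on the wild-type arrays, 9.38, 7.94 and 7.07 on the ob/ob vehicle arrays, and 7.79, 8.99 and 7.29 on the extract arrays. Every ob/ob array, treated or not, was above every wild-type array, and within the ob/ob groups the values spread over more than 2 log2 units and overlapped. The difference between ob/ob vehicle and wild type was 3.76 (SE 0.58, 95% interval 2.47 to 5.04, limma adjusted p = 0.00964), a 13.5-fold ratio of the measured means. On all 3 wild-type arrays Cdkn1a was inside the olfactory receptor range, so the 13.5-fold ratio rests on a dim level. Against the mean upper end of that range, the ob/ob vehicle mean was 4.45-fold higher, a ratio given without a sampling error. The call was lost without wild-type array 2 (difference 3.79, adjusted p = 0.0516) and kept under each of the other 17 alternatives run.

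The other 3 inhibitors and phosphatases passed no test in any comparison. Cdkn1b, the p27 inhibitor of cyclin E and Cdk2, measured 7.44, 6.97 and 6.24 in wild type, 7.32, 6.91 and 5.87 in ob/ob vehicle, and 6.75, 6.87 and 7.31 with extract. The 2 vehicle groups overlapped almost fully, with a difference of -0.18 (95% interval -1.10 to 0.73). Cdkn3, a phosphatase that acts on Cdk1 and Cdk2, differed by 0.09. Cdc25c, the phosphatase that activates Cdk1 at mitotic entry, differed by -0.18, and both were inside the olfactory receptor range on all 9 arrays.

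**Figure D2:**
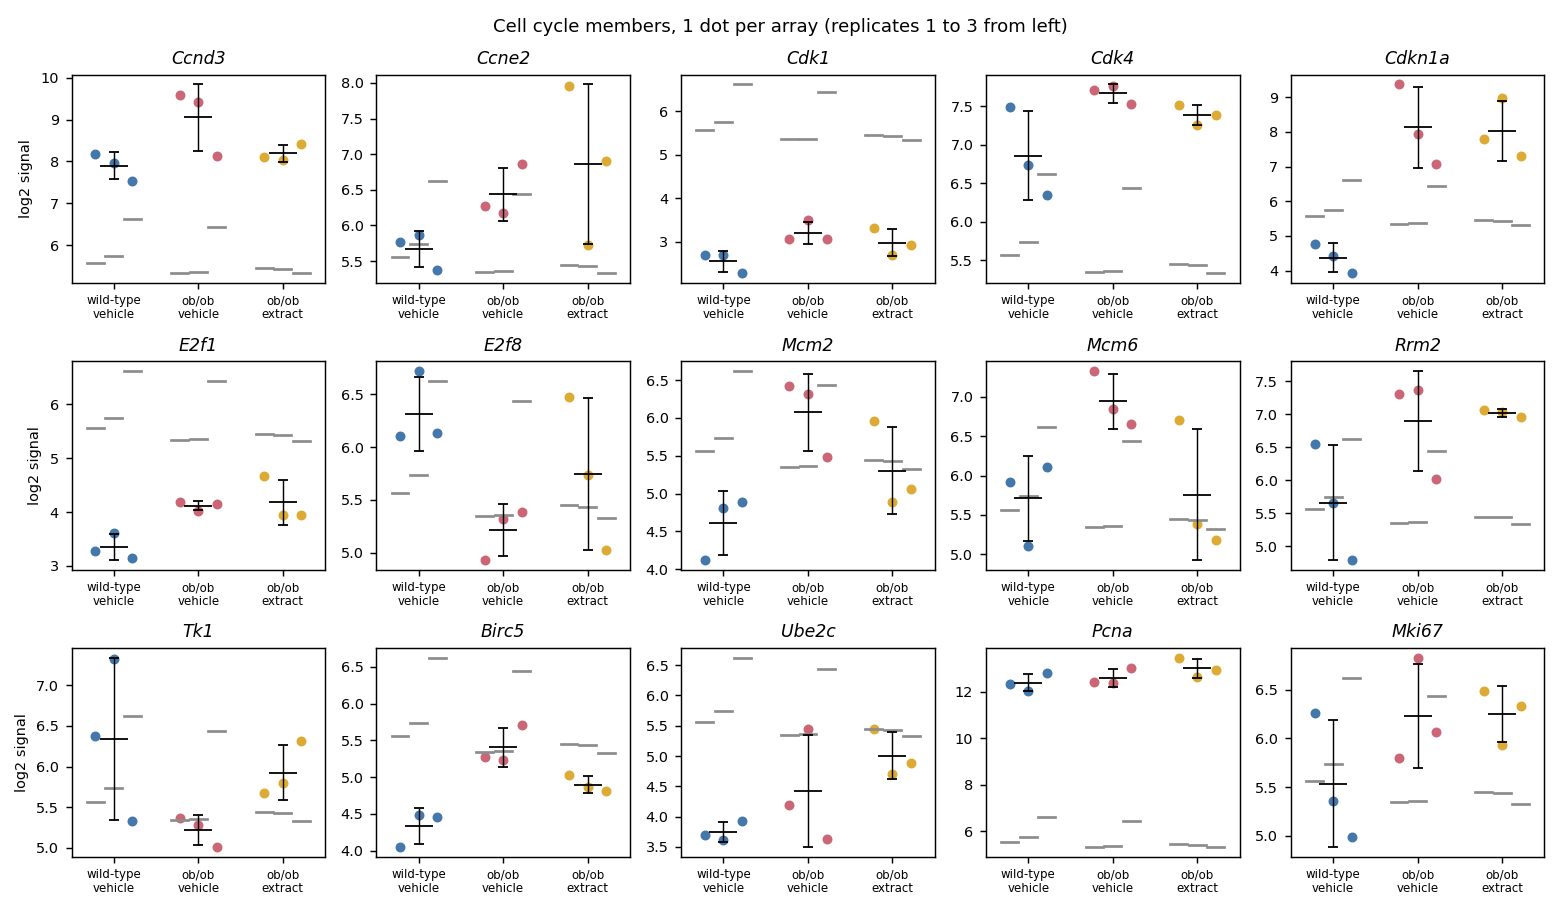
Log2 signal of 15 members on each array (dots) with group mean and SD (black, n = 3); each grey tick is the upper end of that array's olfactory receptor range, and the vertical scale differs between panels. Cdkn1a is higher on all 6 ob/ob arrays than on all wild-type arrays, and Birc5 and Cdk1 stay below the grey ticks throughout.

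Among cyclins and cyclin-dependent kinases, 8 of 9 measured members had a higher mean in ob/ob vehicle than in wild type, with a median difference of 0.59, and none passed the adjusted test. Ccnd3, a D-type cyclin and the one of this role above the olfactory receptor range on every array, measured 8.17, 7.97 and 7.54 in wild type, 9.59, 9.43 and 8.14 in ob/ob vehicle and 8.11, 8.04 and 8.42 with extract. The first and second ob/ob vehicle arrays were high and the third lay within the wild-type values. The difference was 1.16 (SE 0.37, limma adjusted p = 0.139). Without ob/ob vehicle array 3 it was 1.62 and passed (adjusted p = 0.00716).

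Cdk4, the kinase partner of D cyclins, was 6.86 ± 0.58 (SD, n = 3) in wild type and 7.67 ± 0.12 in ob/ob vehicle. All ob/ob vehicle arrays were above all wild-type arrays, and the difference of 0.81 (SE 0.30) had a limma adjusted p of 0.189, or 0.0445 without wild-type array 1. Cdk1, the mitotic kinase, differed by 0.65 (SE 0.26, limma adjusted p = 0.234), between values of 2.27 to 2.69 and 3.06 to 3.49 of which none lay above the olfactory receptor range. Ccnd2, another D cyclin, differed by 0.28 and Cdk2, the kinase partner of cyclins E and A, by -0.11. The E cyclins Ccne1 and Ccne2, which start DNA replication with Cdk2, differed by 0.56 and 0.77. The S phase cyclin Ccna2 and the mitotic cyclin Ccnb2 differed by 0.51 and 0.59. These 6 had an unadjusted p above 0.05.

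The 2 measured E2F factors had differences of opposite sign, neither past the adjusted test. E2f1, an activator of replication genes, measured 3.28, 3.62 and 3.15 in wild type, 4.18, 4.02 and 4.15 in ob/ob vehicle and 4.67, 3.94 and 3.94 with extract. The wild-type arrays were lowest in every case, by a difference of 0.77 (SE 0.27, limma adjusted p = 0.169), although E2f1 was above the olfactory receptor range on no array. E2f8, an E2F repressor expressed as hepatocytes become polyploid, measured 6.10, 6.72 and 6.13 in wild type, 4.93, 5.32 and 5.39 in ob/ob vehicle and 6.47, 5.74 and 5.03 with extract. Here all ob/ob vehicle arrays were below all wild-type arrays, with a difference of -1.10 (SE 0.36, limma adjusted p = 0.144), and the extract arrays spread across both. E2f8 was above the olfactory receptor range on 2 wild-type arrays, on no ob/ob vehicle array and on 2 extract arrays. The single E2f8 value above the wild-type median with extract came from extract array 1.

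Of 10 replication and nucleotide synthesis genes, 8 had a higher mean in ob/ob vehicle, against 44.2% of all clusters. At an unadjusted p under 0.05, 3 were higher and 1 lower, beside 10.3% and 6.72% of all clusters. None passed the adjusted test. Mcm2 and Mcm6 are subunits of the ring-shaped helicase that opens DNA. Mcm2 measured 4.12, 4.81 and 4.89 in wild type, 6.42, 6.32 and 5.49 in ob/ob vehicle, and 5.96, 4.89 and 5.06 with extract. All ob/ob vehicle arrays were above all wild-type arrays, and the third was the lowest of its group. Mcm2 was above the olfactory receptor range on no wild-type array and on 2 ob/ob vehicle arrays, not the third. The difference was 1.47 (SE 0.37, 95% interval 0.64 to 2.30, limma adjusted p = 0.0688). The adjusted p was 0.0172 without ob/ob vehicle array 3.

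Mcm6 measured 5.92, 5.10 and 6.11 in wild type, 7.33, 6.84 and 6.66 in ob/ob vehicle and 6.71, 5.38 and 5.18 with extract. Its ob/ob vehicle arrays too were all above the wild-type arrays, by 1.23 (SE 0.43, limma adjusted p = 0.164). Mcm6 was above the olfactory receptor range on 1 wild-type array, on all 3 ob/ob vehicle arrays and on 1 extract array. The helicase subunits Mcm3 and Mcm5 were inside the olfactory receptor range on every array, with differences of 0.23 and 0.34.

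The nucleotide synthesis enzymes had means on both sides of wild type, none past the adjusted test. Rrm2, the small subunit of ribonucleotide reductase, measured 6.54, 5.65 and 4.79 in wild type, 7.30, 7.37 and 6.02 in ob/ob vehicle and 7.07, 7.03 and 6.96 with extract. The third array was lowest in both vehicle groups, and the difference was 1.24 (SE 0.46, limma adjusted p = 0.200, or 0.0370 without ob/ob vehicle array 3). Tk1, the thymidine kinase of S phase, ran the other way: 6.38, 7.32 and 5.33 in wild type against 5.37, 5.28 and 5.01 in ob/ob vehicle, and 5.67, 5.80 and 6.31 with extract. The groups overlapped through wild-type array 3, and the difference was -1.12 (SE 0.43, limma adjusted p = 0.216). Tyms, thymidylate synthase, differed by 0.44.

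Pcna, the clamp that holds DNA polymerase on its template and also serves DNA repair, was far above the olfactory receptor range on every array, from 12.04 to 13.46. It differed by 0.20 (95% interval -0.50 to 0.90) between ob/ob vehicle and wild type. Cdc6, which loads the helicase, differed by -0.23 and Uhrf1, which copies DNA methylation after replication, by 0.29, both inside the olfactory receptor range.

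Of 18 mitotic genes, 15 had a higher mean in ob/ob vehicle, with a median difference of 0.25, and 1, Birc5, was called. Birc5 encodes survivin, a subunit of the chromosomal passenger complex and an inhibitor of apoptosis. Its signal was 4.05, 4.49 and 4.46 in wild type, 5.28, 5.23 and 5.71 in ob/ob vehicle and 5.03, 4.86 and 4.81 with extract. The 3 groups did not overlap, with the extract arrays between the other two, yet no array was above its own olfactory receptor range. The difference was 1.07 (SE 0.24, 95% interval 0.53 to 1.61, limma adjusted p = 0.0449), close to the threshold: with the replicate number as a block the adjusted p was 0.0731, and without any 1 of the 9 arrays it was 0.0548 to 0.121.

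The standard proliferation marker Mki67 measured 6.26, 5.36 and 4.99 in wild type, 5.80, 6.83 and 6.07 in ob/ob vehicle and 6.49, 5.93 and 6.33 with extract. The groups overlapped, and the difference was 0.70 (95% interval -0.14 to 1.53, limma adjusted p = 0.390). Top2a, the topoisomerase that untangles chromosomes, differed by 0.08 (95% interval -0.72 to 0.88). Aurkb, the kinase partner of survivin in the same complex, differed by -0.26, and Plk1, the polo kinase of mitotic entry and exit, by 0.19. Aurka, the spindle pole kinase, differed by 0.08, and its activator Tpx2 by 0.17.

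The spindle checkpoint genes Bub1 and Bub1b differed by 0.01 and 0.52, and Cdc20 and Ube2c, which direct cyclin destruction at mitotic exit, by 0.31 and 0.68. Among kinetochore proteins, Cenpa, the centromeric histone, differed by 0.11, Cenpe, a motor, by -0.05 and Cenpf by 0.47. Among spindle motors and microtubule binders, Kif11 differed by -0.25, Kif20a by 0.72, Nusap1 by 0.71 and Prc1 by 0.30. None of these 11 had an unadjusted p under 0.05. A true change of 1 log2 unit can be missed at this sample size. On simulated data with independent normal noise, the same fit called 7.46% of 67 clusters changed by 1 unit. It called 59.7% of 67 changed by 2 and 98.5% of 66 changed by 4. The other 22006 clusters were unchanged there. With so few changed, the adjustment is stricter than where many clusters differ, so these rates need not hold for this comparison.

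**Figure D3:**
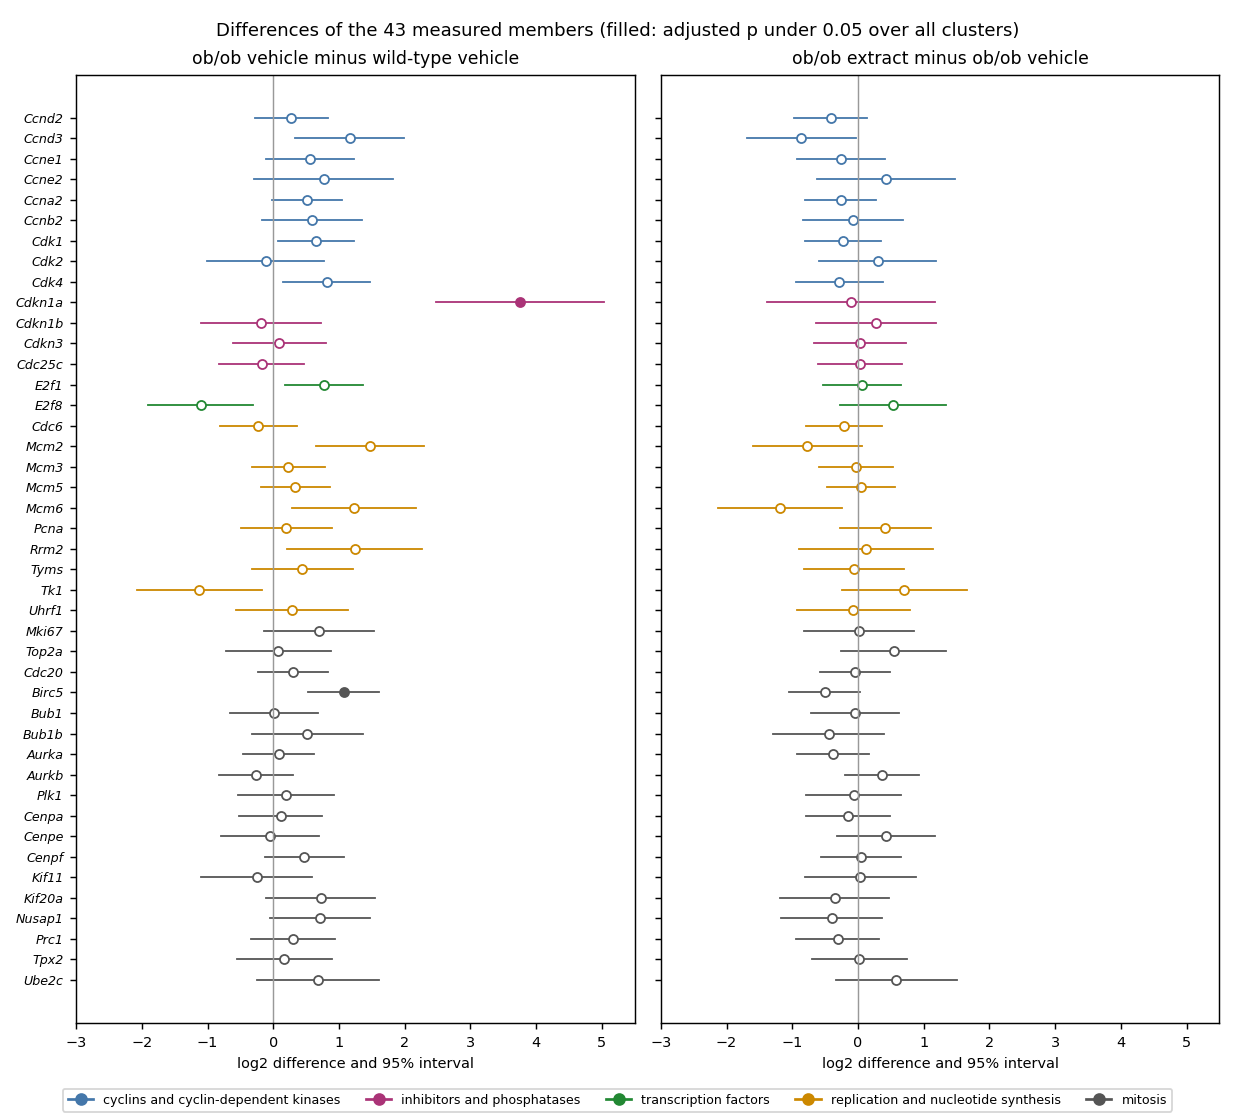
Difference in log2 signal (points) with its 95% interval (lines) for each of the 43 measured members, ob/ob vehicle minus wild type on the left and ob/ob extract minus ob/ob vehicle on the right, coloured by role, filled where limma's adjusted p was under 0.05. Cdkn1a lies at 3.76 on the left and at -0.11 on the right, where no point is filled.

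The second comparison, extract against vehicle in ob/ob mice, asks whether VE moved these genes. No member was called by limma with Benjamini-Hochberg adjustment, and neither was any of the 22206 clusters (0%), of which 1433 had an unadjusted p under 0.05. By the study's criterion 0 members were higher and 2 lower, Ccnd3 and Mcm6, beside 3.56% and 2.90% of all clusters. The groups did not overlap for 5 members, against 13.6% of all clusters. Of 43 members, 19 had a higher mean with extract and the median difference was -0.05, against -0.01 for all clusters. These shares were near the background.

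Cdkn1a, the member furthest from wild type, averaged 8.13 ± 1.17 (SD, n = 3) with vehicle and 8.02 ± 0.87 with extract. The difference was -0.11, with a 95% interval from -1.39 to 1.18, so a change of about 1 unit in either direction lies within the error. Mcm6 averaged 6.94 ± 0.35 with vehicle and 5.76 ± 0.83 with extract, close to its wild-type mean of 5.71. Both lower means rest on a dim level, with 1 extract array and 1 wild-type array above the olfactory receptor range. Extract arrays 2 and 3 were below every vehicle array and extract array 1 was inside the vehicle range. The difference was -1.19 (SE 0.43, 95% interval -2.13 to -0.24, limma adjusted p = 0.741).

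Ccnd3 differed by -0.86 (SE 0.37, limma adjusted p = 0.767), through the first and second vehicle arrays. With array 3 of both vehicle groups left out, the difference was -1.32 and the adjusted p was 0.0274, and Ccnd3 was then the single member called. Mcm2 differed by -0.77 (95% interval -1.60 to 0.05) and Birc5 by -0.51 (SE 0.24, limma adjusted p = 0.776). Ccnd2 and Cdk4 also did not overlap between the groups and were lower with extract, by -0.42 and -0.28. Tk1 and Aurkb did not overlap in the other direction, with differences of 0.71 and 0.36.

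By role, the median difference with extract was -0.26 for the 9 cyclins and kinases, of which 7 were lower, -0.05 for the 10 replication genes and -0.05 for the 18 mitotic genes. Among inhibitors and phosphatases the smallest p was that of Cdkn1b (0.28, SE 0.41, limma adjusted p = 0.932), and among the transcription factors that of E2f8 (0.53, SE 0.36, limma adjusted p = 0.842). Mki67 differed by 0.02 (95% interval -0.82 to 0.85), Top2a by 0.54 and Pcna by 0.42. Within the extract group the arrays were not alike: array 1 gave the highest value of its group for 26 of 43 members, against 36.5% of all clusters, and array 2 the lowest for 23 of 43, against 30.2%.

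Kupffer cell and macrophage markers are given here because their summed signal was highest in the ob/ob vehicle group. Of 11 listed, 10 were measured, 1 was above the olfactory receptor range on all arrays and none was inside it on every array. The log2 of their summed signal was 9.76 to 10.58 in wild type, 10.70 to 11.22 in ob/ob vehicle and 9.12 to 10.24 with extract. The ob/ob vehicle arrays were thus above both other groups. The sum is weighted towards Cd5l, the brightest marker by its mean in each group, and was not computed without it. It therefore does not show a shift of the list as a whole. Single markers were mixed: in ob/ob vehicle against wild type 5 had a higher mean and 5 a lower one, from 1.46 for Cd5l to -0.53 for Clec4f, and 2 were higher at an unadjusted p under 0.05, beside 10.3% of all clusters. Between the ob/ob groups 4 of 10 were lower with extract at an unadjusted p under 0.05, beside 2.90% of all clusters, and none was called. Their part in the members' values was not tested. The summed hepatocyte signal was 21.56 to 21.76 in wild type, 21.18 to 21.41 in ob/ob vehicle and 21.28 to 21.45 with extract. On each wild-type array Alb, Apoa1 and Ttr had the same value, so these brightest genes may lie at the upper limit of the signal. Among them, Apoa1 alone had a lower mean in both ob/ob groups. The sum was therefore not read as hepatocyte content.

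The third comparison, extract-treated ob/ob against wild type, shares its wild-type arrays with the first and its extract arrays with the second, so it is no separate evidence for either. Cdkn1a was again the member that stood apart, 3.65 higher (SE 0.58, 95% interval 2.37 to 4.93, limma adjusted p = 0.0149). Against the mean upper end of the wild-type olfactory receptor range, its extract mean was 4.14-fold higher, again without a sampling error. Cdkn1a was the 1 member called, beside 0.977% of all clusters called higher and 0.315% called lower. The call was lost without wild-type array 2, wild-type array 3, extract array 1 or extract array 2, with adjusted p-values of 0.0570 to 0.0801.

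By the study's criterion 6 members were higher than wild type and none lower, beside 8.21% and 5.82% of all clusters. The groups did not overlap for 7 members, against 21.7%. The mean was higher in 33 of 43 members, with a median difference of 0.26 against -0.05. Of the 6, Rrm2 was higher by 1.36 (SE 0.46, limma adjusted p = 0.214), with all 3 extract arrays above all wild-type arrays. E2f1 differed by 0.83 (SE 0.27, limma adjusted p = 0.194) and Birc5 by 0.57 (SE 0.24, limma adjusted p = 0.332).

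Ube2c, the ubiquitin-conjugating enzyme of mitotic exit, measured 3.70, 3.61 and 3.93 in wild type, 4.19, 5.45 and 3.64 in ob/ob vehicle and 5.44, 4.70 and 4.88 with extract. Extract arrays were all above wild type, by 1.26 (SE 0.42, limma adjusted p = 0.205), and 1 of the 9 arrays, ob/ob vehicle array 2, was above the olfactory receptor range. Ccne2 measured 5.77, 5.86 and 5.38 in wild type, 6.27, 6.18 and 6.86 in ob/ob vehicle and 7.96, 5.72 and 6.91 with extract. Its extract arrays spanned from below the wild-type maximum to the highest value of all, and the difference was 1.19 (SE 0.48, limma adjusted p = 0.294). Mcm6 differed from wild type by 0.05 (95% interval -0.90 to 0.99) after extract, and Ccnd3 by 0.30 (95% interval -0.53 to 1.13).

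Because Cdkn1a is a p53 target, 16 other known p53 targets were read beside it, of which 14 were measured. The list was chosen with earlier results of these data known, so its counts are no independent check. No test compared them with the background, and p53 activity was not tested. In ob/ob vehicle against wild type 3 of 14 were called higher and none lower, beside 2.28% and 0.680% of all clusters. The mean was higher for 12 and lower for 2. At an unadjusted p under 0.05, 7 were higher and none lower, beside 10.3% and 6.72%, and the median difference was 0.65 against -0.06 for all clusters. Ccng1, cyclin G1, measured 9.87, 10.15 and 8.78 in wild type, 12.63, 12.47 and 12.80 in ob/ob vehicle and 11.55, 11.11 and 11.62 with extract. The 3 groups did not overlap. It rose by 3.03 (SE 0.35, limma adjusted p = 0.00232) and kept its call under all 18 alternatives run.

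Ei24, an endoplasmic reticulum protein induced in cell death, measured 12.76, 11.0 and 11.11 in wild type, 14.34, 13.69 and 14.16 in ob/ob vehicle and 12.90, 13.64 and 13.34 with extract. It rose by 2.44 (SE 0.44, limma adjusted p = 0.0191), with wild-type array 1 closest to the obese values. Gadd45a, a stress protein that inhibits Cdk1, measured 8.17, 7.70 and 7.67 in wild type, 8.83, 8.84 and 9.32 in ob/ob vehicle and 8.96, 8.93 and 9.24 with extract. It rose by 1.15 (SE 0.25, limma adjusted p = 0.0420), with the vehicle and extract groups overlapping.
Calls for Ei24 were lost without wild-type array 2 or 3 or ob/ob vehicle array 1 or 2 (adjusted p 0.0524 to 0.0875), and in the fit on the compared groups alone. For Gadd45a the call was lost in 12 of 18 alternatives, among them the replicate block (adjusted p = 0.0650), each extract array left out, wild-type array 2 or 3 left out, and ob/ob vehicle array 1 or 2 left out.

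With extract against vehicle none of the 14 was called. Ccng1 was lowest in p, at -1.21 (SE 0.35, 95% interval -1.98 to -0.44, limma adjusted p = 0.707), and 4 of the 14 had extract arrays all below the vehicle arrays, where 1350 of 22206 clusters did. Against wild type, extract-treated liver still had Ccng1 higher by 1.83 (SE 0.35, limma adjusted p = 0.0342). That call was lost without wild-type array 3, without ob/ob vehicle array 1 or 2, without any 1 extract array, under the replicate block (adjusted p = 0.0567) and under quantile normalisation (adjusted p = 0.0595).

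**Figure D4:**
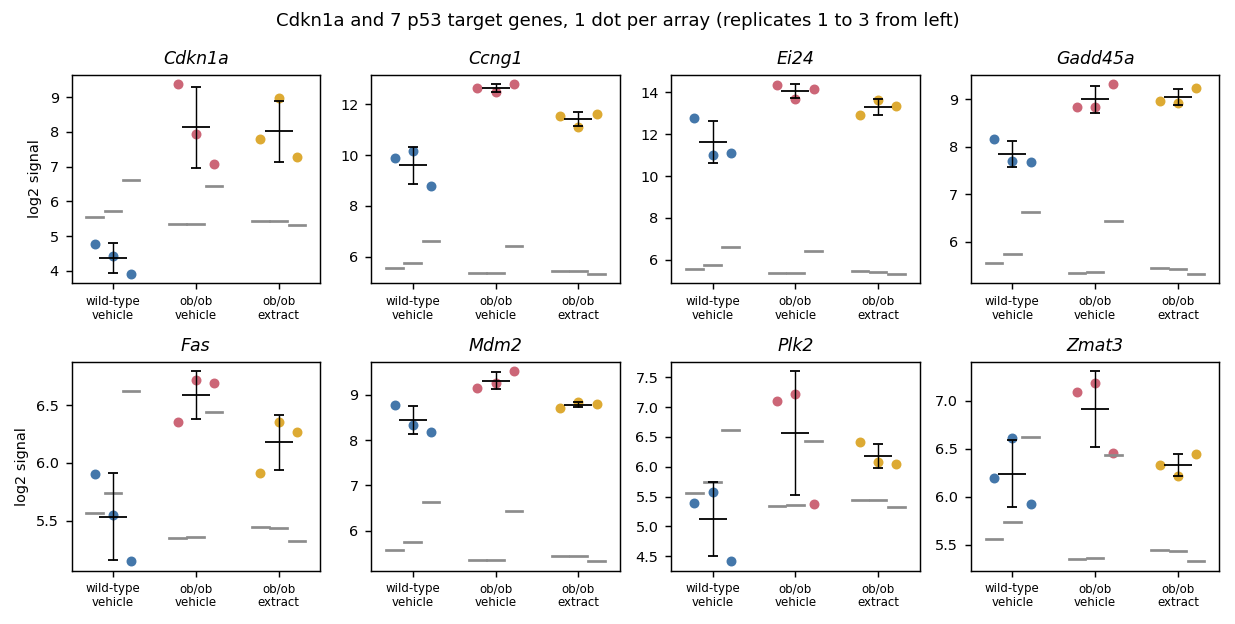
Log2 signal of Cdkn1a and of the 7 p53 targets with an unadjusted p under 0.05 (Ccng1, Ei24, Gadd45a, Fas, Mdm2, Plk2 and Zmat3) on each array (dots) with group mean and SD (black, n = 3) and the upper end of each array's olfactory receptor range (grey ticks). Ccng1, Ei24 and Gadd45a are above the grey ticks on all 9 arrays, with every ob/ob vehicle value above every wild-type value.

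The wider cell cycle programme was read from lists of other genes. Of 26 measured replication genes outside the members, 1 was called lower and none higher in ob/ob vehicle, beside 0.680% and 2.28% of all clusters. At an unadjusted p under 0.05, 2 were higher and 1 lower, beside 10.3% and 6.72%. The mean was higher for 16 of 26, with a median difference of 0.26. The gene called was Mcm10, a replication initiation factor, which measured 12.09, 11.93 and 12.01 in wild type, 10.07, 10.18 and 9.21 in ob/ob vehicle and 9.09, 9.80 and 9.84 with extract. Both ob/ob groups were well below wild type, by -2.19 (SE 0.32, limma adjusted p = 0.00681) and -2.43 (SE 0.32, limma adjusted p = 0.00508), and both calls were kept under all 18 alternatives.

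Of 46 other mitotic genes none was called between the vehicle groups, 8 being higher and 1 lower at an unadjusted p under 0.05, beside 10.3% and 6.72% of all clusters, with a median difference of 0.13. Spc25, a kinetochore subunit, measured 6.10, 6.17 and 5.31 in wild type, 7.52, 7.43 and 7.01 in ob/ob vehicle and 8.53, 8.20 and 7.43 with extract. It was 1.46 higher in ob/ob vehicle (SE 0.35, limma adjusted p = 0.0526), and with extract it rose by 2.19 against wild type (SE 0.35, limma adjusted p = 0.0147). The latter call was lost without extract array 1 or 2, with adjusted p-values of 0.0699 and 0.0914. Of 27 other regulators, none was called in any comparison, beside 2.28% of all clusters called higher and 0.680% lower between the vehicle groups. In that comparison 6 were higher and 1 lower at an unadjusted p under 0.05, beside 10.3% and 6.72% of all clusters. Cdk6, another partner of D cyclins, was 1.30 higher in ob/ob vehicle (SE 0.39, limma adjusted p = 0.118).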

How the data were processed

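Log2 signals per transcript cluster are the authors' deposited values for 9 arrays; per the series' design text they were made with Transcriptome Analysis Console 4.0.2 by SST-RMA, from 100 ng of RNA per sample. SST-RMA stretches differences to offset compression at low signal, so dim clusters can show large log2 differences. Symbols came from the platform annotation (19572 of 22206 clusters had 1 symbol, the other 2634 none).

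Group means were estimated from all 9 arrays together with limma 3.58.1 (R 4.3.3; lmFit, eBayes), with Benjamini-Hochberg adjustment over 22206 clusters and a call at an adjusted p under 0.05. P-values measure the spread between these samples, 3 per group, whose number limits the precision. The members and the other gene lists were chosen with earlier results of these data known. Differences are given for members with a p under 0.05 or, in a role without one, the smallest p; array values for called members and the smallest p of each role, and also for Mki67 and Tk1, added after their values were seen; and, of other lists, up to 3 genes of smallest p. Other members are given by their differences or ranges.

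Deviations of same-numbered wild-type and ob/ob vehicle arrays from their group means correlated at 0.256, 0.262 and 0.450. The labels state no pairing, and the main fit was unpaired. Because of these correlations, a fit with the replicate number as a block was run as an alternative. That fit blocked the extract arrays too, and a paired fit of the vehicle groups alone was not run. Alternatives were quantile normalisation, array medians, fits on the compared groups alone, array weights, trended and robust eBayes, filters on dim clusters, an adjusted p under 0.10, each array left out in turn, and array 3 of both vehicle groups left out. The fit was tested on simulated data. Promoter windows are RefSeq's; protein sequences were not used here.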

Additional observations from a re-analysis of the deposited data

How the results depend on the processing

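The 26 named differences were chosen by their p-values on these same arrays. That they kept their direction under every alternative run was therefore likely beforehand and is no independent check. Of 459 recomputed values 399 stayed on the same side of the threshold, many of them uncalled before and after. A further 44 lost their call, 16 gained a call and 0 reversed. For ob/ob vehicle against wild type, the 2 called members became 1 in the fit on the compared groups alone, with trended and robust eBayes and with the replicate block (Cdkn1a in each), 9 with array weights and 7 with array 3 of both vehicle groups left out. Leaving out 1 array gave 0 (without wild-type array 2) to 4 called members (without ob/ob vehicle array 3). Extract against vehicle had 0 called members, and 1, Ccnd3, with array 3 of both vehicle groups left out. Extract against wild type had 1, and 0 to 1 with 1 array left out. The cause of these shifts was not tested.

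Over all clusters, calls for ob/ob vehicle against wild type went from 658 to 207 with the compared groups alone, 2137 with array weights, 1206 at an adjusted p under 0.10, 1745 without array 3 of both vehicle groups, and 147 to 1679 with 1 array left out. For extract against vehicle, 0 calls became 106 with array weights, 360 without array 3 of both vehicle groups and 51 without ob/ob vehicle array 3. For extract against wild type, 287 became 796 with array weights, 516 at an adjusted p under 0.10, 595 without array 3 of both vehicle groups and 77 to 598 with 1 array left out. Quantile normalisation moved the split of calls from 507 higher and 151 lower to 290 and 256 for the first comparison, and from 217 and 70 to 153 and 97 for extract against wild type.

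Same-numbered arrays did not deviate together for extract and vehicle (-0.130, 0.0157 and -0.106) or for extract and wild type (-0.208, -0.0412 and -0.143). There the replicate block left 0 and 1 called members, as without it. The alternative of the dimmest cluster per gene was not run, since each measured member had 1 cluster. Signal over the olfactory receptor range limits 19 members throughout, and wild-type array 3 and ob/ob vehicle array 3 most.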
